A study of Mus musculus with 53 samples.

Results

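Basement membrane is the sheet of extracellular matrix that primitive endoderm, the extra-embryonic layer facing the blastocoel, lays down beneath itself and later thickens in its parietal derivative. A laminin network and a type IV collagen network, bridged by nidogen and the heparan sulfate proteoglycan perlecan, make up its core. Laminin 111 is a trimer of the α1, β1 and γ1 chains encoded by Lama1, Lamb1 and Lamc1, and the collagen IV network of most tissues is built from trimers of the α1 and α2 chains encoded by Col4a1 and Col4a2. Nid1 encodes nidogen 1, which binds laminin γ1 and collagen IV, Hspg2 encodes perlecan, and Sparc encodes a secreted, collagen-binding glycoprotein that is abundant in parietal endoderm. These 8 genes, chosen by name, were taken from 21938 protein-coding genes of the GENCODE M21 annotation of the mouse GRCm38 (mm10) build. Col4a1 and Col4a2 are transcribed away from each other from adjoining starts and were treated as 1 locus, which gave 7 loci of 21937. A locus was the gene body with 50 kb on either side, and every deposited CUT&RUN peak touching it was taken.

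CUT&RUN cuts DNA around an antibody-bound protein, and peak lists were at hand for 35 libraries. All came from E14JU mouse embryonic stem cells (ESCs) in which endogenous SOX2 carries GFP and endogenous GATA6 carries mCherry (SGGC cells), as clones B9 and B12 that keep their resistance cassettes, and no wild-type cells or embryos are among them. Naive ESCs were cultured in 2iLIF (a MEK inhibitor, the GSK3 inhibitor CHIR99021 and LIF) or in NACL (N2B27 with Activin A, CHIR99021 and LIF), and nEnd is their extra-embryonic endoderm counterpart derived in culture. SOX2+ cells (GFP positive, mCherry negative) and double-positive (DP) cells were sorted from clone B12 grown in knockout serum replacement medium (KOSR), in experiments named A, A1 and B. In 2iLIF, NACL and nEnd, H3K27ac (acetylation of active enhancers and promoters) had 1 library per clone, H3K4me1 (methylation of enhancers) had 2 libraries per group, and both nEnd H3K4me1 libraries came from clone B9. SOX2+ cells had 2 libraries per mark and DP cells only 1 per mark, from experiment A. SOX2 was profiled in 2iLIF (2 libraries), NACL (2), SOX2+ (3) and DP (3), and GATA6 in DP (3) and nEnd (2), so SOX2 in nEnd and GATA6 in pluripotent cells are not analysed here. Another 2 histone libraries of experiment B carry the name DP and the source SOX2+, and are given apart from all groups.

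Each list holds a maximal signal per peak on its own scale and with no read depth, so that a peak was described by its rank in its own library, where rank 1 is the highest of all peaks. The best rank over a locus is the measure used below. Lists ran from 1378 to 401853 peaks, and in comparisons between groups every rank below the shortest list compared, and every locus without a peak, was set to the length of that list plus 1. Labels were checked on 17 marker genes of 3 cell types fixed as lists: for H3K27ac, all nEnd libraries ranked above all naive libraries at 5 of 7 primitive endoderm genes and below them at 5 of 6 pluripotency genes, and the trophoblast genes Cdx2 and Eomes also ranked above (2 of 4). H3K4me1 ranked higher in nEnd at all 7 primitive endoderm genes and lower at 1 of 6 pluripotency genes (Prdm14), and the groups overlapped at the other 5 and at all 4 trophoblast genes. Over all loci, 19.5% were higher and 19.2% lower for H3K27ac by this rule, and 16.2% and 14.5% for H3K4me1. In these bulk populations, fewer cells with a mark and less of the mark per cell cannot be told apart.

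The regions that the GATA6 and SOX2 results turn on are shown first by their sequence. All are 200-base stretches around peak maxima on the plus strand of GRCm38.p6, and none lies in an exon. Capitals mark the letters AGATAA or their reverse complement TTATCT, which GATA factors bind, and CATTGT or its reverse complement ACAATG, which SOX factors bind. The first is the maximum of the highest GATA6 peak of nEnd, 43 kb upstream of Lama1, and the others are regions bound by SOX2 and GATA6 in DP cells.
Lama1 upstream, chr17:67654145-67654344: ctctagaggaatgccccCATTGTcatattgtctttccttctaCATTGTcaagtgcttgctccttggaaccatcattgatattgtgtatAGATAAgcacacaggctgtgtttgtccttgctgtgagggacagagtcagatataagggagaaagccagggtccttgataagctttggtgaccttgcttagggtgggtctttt
Lamb1 upstream, chr12:31229380-31229579: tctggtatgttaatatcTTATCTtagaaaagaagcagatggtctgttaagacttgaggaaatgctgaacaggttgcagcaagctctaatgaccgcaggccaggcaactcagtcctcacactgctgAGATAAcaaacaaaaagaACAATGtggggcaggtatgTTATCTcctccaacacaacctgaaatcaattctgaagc
Lamc1 upstream, proximal, chr1:153358699-153358898: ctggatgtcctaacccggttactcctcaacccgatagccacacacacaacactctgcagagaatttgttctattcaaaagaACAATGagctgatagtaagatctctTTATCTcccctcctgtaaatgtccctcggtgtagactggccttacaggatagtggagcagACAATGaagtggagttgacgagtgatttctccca
Lamc1 upstream, distal, chr1:153376775-153376974: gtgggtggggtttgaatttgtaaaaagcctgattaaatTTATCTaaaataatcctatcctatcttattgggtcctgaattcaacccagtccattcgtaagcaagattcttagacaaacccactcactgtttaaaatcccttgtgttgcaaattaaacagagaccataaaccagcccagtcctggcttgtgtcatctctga
Col4a1 intron, chr8:11266139-11266338: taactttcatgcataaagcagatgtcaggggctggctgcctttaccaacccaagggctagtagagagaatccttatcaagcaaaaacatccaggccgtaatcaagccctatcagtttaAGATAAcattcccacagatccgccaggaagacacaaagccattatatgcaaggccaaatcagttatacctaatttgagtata
Hspg2 downstream, chr4:137590395-137590594: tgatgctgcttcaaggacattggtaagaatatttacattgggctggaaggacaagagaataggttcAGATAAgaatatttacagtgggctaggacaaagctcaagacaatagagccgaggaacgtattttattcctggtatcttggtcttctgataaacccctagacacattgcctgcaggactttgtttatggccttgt
Sparc upstream, chr11:55428886-55429085: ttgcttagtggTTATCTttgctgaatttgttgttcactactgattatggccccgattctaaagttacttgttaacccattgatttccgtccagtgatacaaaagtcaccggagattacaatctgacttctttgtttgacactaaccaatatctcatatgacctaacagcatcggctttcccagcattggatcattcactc

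In nEnd, H3K27ac at these genes stood among the highest peaks of the genome, with the exception of Nid1. All 3 laminin 111 chains, both collagen IV chains, Hspg2 and Sparc ranked higher in both nEnd libraries than in any of the 4 naive libraries, which is 6 of 7 loci against 19.5% of all loci called higher by the same rule of no overlap. None of the 7 was lower, as were 19.2% of all loci. The median difference of mean log10 rank between naive and nEnd cells was 1.55 over the 7 loci and 0 over all loci. The lists differed in length, with 20072 and 21394 peaks in nEnd and 210904 to 401853 in naive cells. With the rank taken as a share of its own list, a choice added after the data were seen, Lama1, Lamb1, collagen IV and Sparc were higher in nEnd (4 of 7 loci, where 1.42% of all loci were), Nid1 and Hspg2 were lower (2 of 7, where 81.1% were), and Lamc1 overlapped. The windows of these loci span 129 to 351 kb against a median of 117 kb, and a longer window takes in more peaks. With 2 against 4 libraries the exact permutation test cannot go below p = 0.133, the value of all 6 loci, and the adjusted p was 0.344 (Benjamini-Hochberg over all loci).

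**Figure D1:**
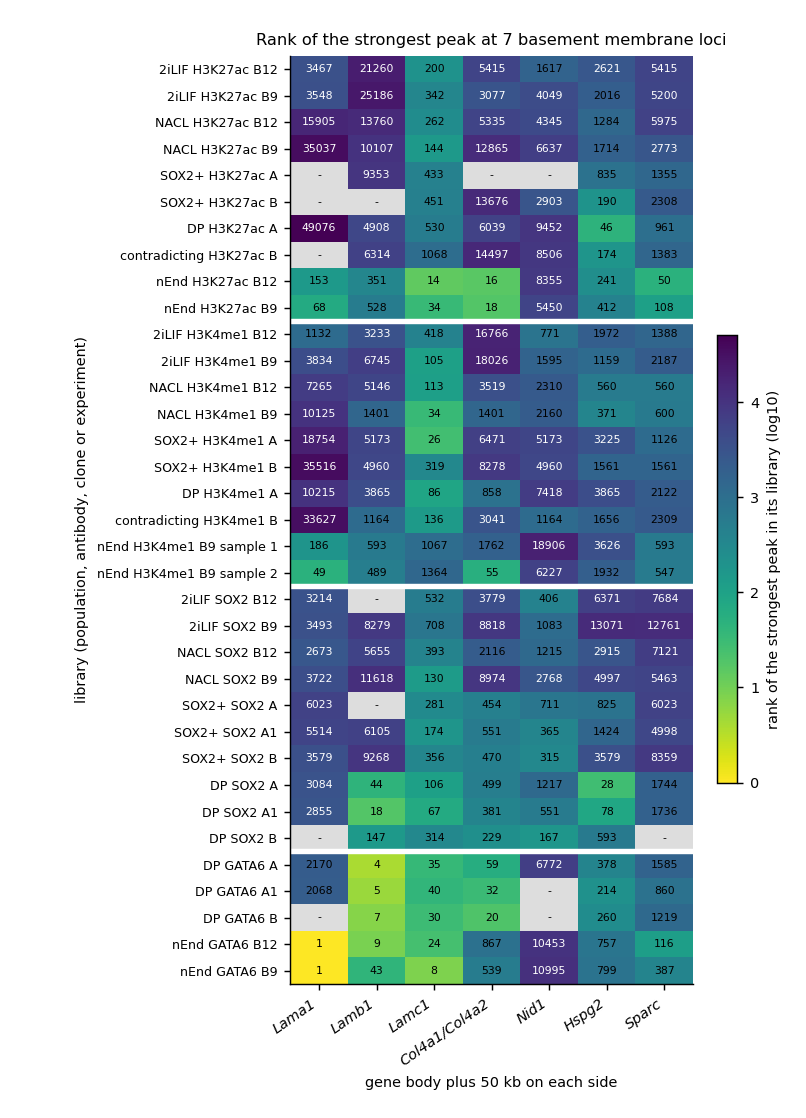
Best peak rank at each of the 7 loci (columns) in each of the 35 libraries (rows, grouped by antibody and population), coloured from yellow (best) to dark purple (worst) on a log10 scale with the rank printed in each cell, and grey cells with a dash for loci without a peak. In nEnd the H3K27ac ranks of Lama1, Lamb1, Lamc1, Col4a1/Col4a2 and Sparc lie between 14 and 528, while Nid1 stands at 5450 and 8355.

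The laminin chains did not share a starting point in pluripotent cells. Lama1 (chr17:67697259-67822647, plus strand) had H3K27ac ranks of 68 and 153 in nEnd. In 2iLIF it ranked 3548 and 3467, in NACL 35037 and 15905, and neither SOX2+ library had a peak. Both nEnd ranks were ahead of all others, and the geometric mean rank differed 77.6-fold from the naive one. As a share of the list the ratio was 7.17, and the clone B12 libraries of nEnd and 2iLIF were close to each other, at 0.762% and 0.863%. The strongest nEnd peak lay 14 kb upstream of the gene in both clones, whereas in 2iLIF the strongest peaks lay 13.4 and 14.1 kb inside it, in an intron. In NACL the strongest peak lay 104.7 kb inside the gene in clone B9, also in an intron, and 3.1 kb upstream of it in clone B12.

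Lamb1 (chr12:31265234-31329644, plus strand) had H3K27ac ranks of 528 and 351 in nEnd against 25186 and 21260 in 2iLIF, with 10107 and 13760 in NACL. The SOX2+ library of experiment A ranked 9353, and that of experiment B had no peak. The strongest peaks of 2iLIF in clone B12, NACL in clone B9 and SOX2+ in experiment A lay at the start of the neighbouring gene Dld, and those of the other naive libraries 39.7 and 40.1 kb upstream of Lamb1. The groups did not overlap, and the rank ratio between naive and nEnd was 35.7 with ranks limited to the 20072 peaks of the shortest list. As a share of the list it was 3.08.

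Lamc1 (chr1:153218922-153332786, minus strand), the chain shared by most laminins, was already high in every population. Its H3K27ac ranks were 34 and 14 in nEnd, 433 and 451 in SOX2+, 342 and 200 in 2iLIF, and for NACL 144 and 262, with a 10.3-fold difference between naive and nEnd. As a share of the list, the best Lamc1 peak stood at 0.159% and 0.0697% in nEnd and at 0.0498% to 0.147% in naive cells, which overlapped. By rank it was, of the 7 loci, the highest in the pluripotent libraries except in SOX2+ of experiment B, where Hspg2 ranked 190. Both 2iLIF libraries had their strongest peak of the window beyond the 3′ end of Lamc1, while NACL and SOX2+ libraries had theirs 43.7 to 44.3 kb upstream of Lamc1.

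Collagen IV showed the widest difference of the set. The joint Col4a1 (chr8:11198423-11312826, minus strand) and Col4a2 (chr8:11312805-11449287, plus strand) locus had H3K27ac ranks of 18 and 16 in nEnd. The 2iLIF libraries ranked 3077 and 5415 and the NACL libraries 12865 and 5335, which gave a ratio of 343. As a share of the list, the best collagen IV peak stood at 0.0841% and 0.0797% in nEnd and at 1.32% to 5.74% in naive cells, a ratio of 27.5. The SOX2+ library of experiment A had no peak, and that of experiment B ranked 13676. In all 4 naive libraries and in SOX2+ of experiment B, the strongest peak lay at the start of the neighbouring gene Naxd, 184.4 to 185.3 kb from the shared collagen start. In nEnd it lay 52.7 and 52.8 kb from that start, in an intron of Col4a1.

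Nid1 (chr13:13437551-13512269, plus strand) behaved otherwise. Its H3K27ac ranks were 5450 and 8355 in nEnd, 4049 and 1617 in 2iLIF, and 6637 and 4345 in NACL, so that the groups overlapped and the ratio was 0.549. With NACL of clone B9 left out, both nEnd libraries ranked below the naive libraries. SOX2+ cells had no peak in experiment A and a rank of 2903 in experiment B. Every one of these peaks lay in an intron, 13.5 to 31.2 kb from the start in naive and SOX2+ cells and 9.3 and 9.2 kb from it in nEnd.

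Hspg2 (chr4:137468769-137570630, plus strand) ranked 412 and 241 in nEnd for H3K27ac. The 2iLIF ranks were 2016 and 2621, those of NACL 1714 and 1284, and those of SOX2+ 835 and 190. The nEnd and naive ranks did not overlap and differed 5.86-fold, but the order turned as a share of the list, with 1.93% and 1.2% in nEnd and 0.609% to 0.866% in naive cells. SOX2+ of experiment B ranked above both nEnd libraries. In all naive and SOX2+ libraries the strongest peak lay at or within Usp48, whose start is downstream of Hspg2, while in nEnd it lay 1.8 kb inside Hspg2 in clone B9 and 5.6 kb before the Usp48 start in clone B12. With windows of 10 kb instead of 50 kb on either side, which leave out the Usp48 start, Hspg2 was still 1 of 6 loci called higher in nEnd than in naive cells.

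Sparc (chr11:55394500-55423183, minus strand) ranked 108 and 50 in nEnd for H3K27ac. The 2iLIF ranks were 5200 and 5415, those of NACL 2773 and 5975, and those of SOX2+ 1355 and 2308. All pluripotent libraries lay below both nEnd libraries, and the ratio between naive and nEnd was 63.2 by rank and 5.08 as a share of the list. The strongest peaks of 2iLIF and SOX2+ lay 44.9 to 47.3 kb upstream, 0.8 to 1.6 kb from the start of G3bp1, as did that of NACL in clone B9. That of NACL in clone B12 lay 5.2 kb inside Sparc, in an intron, and those of nEnd lay 7.5 and 7.3 kb upstream of Sparc itself.

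**Figure D2:**
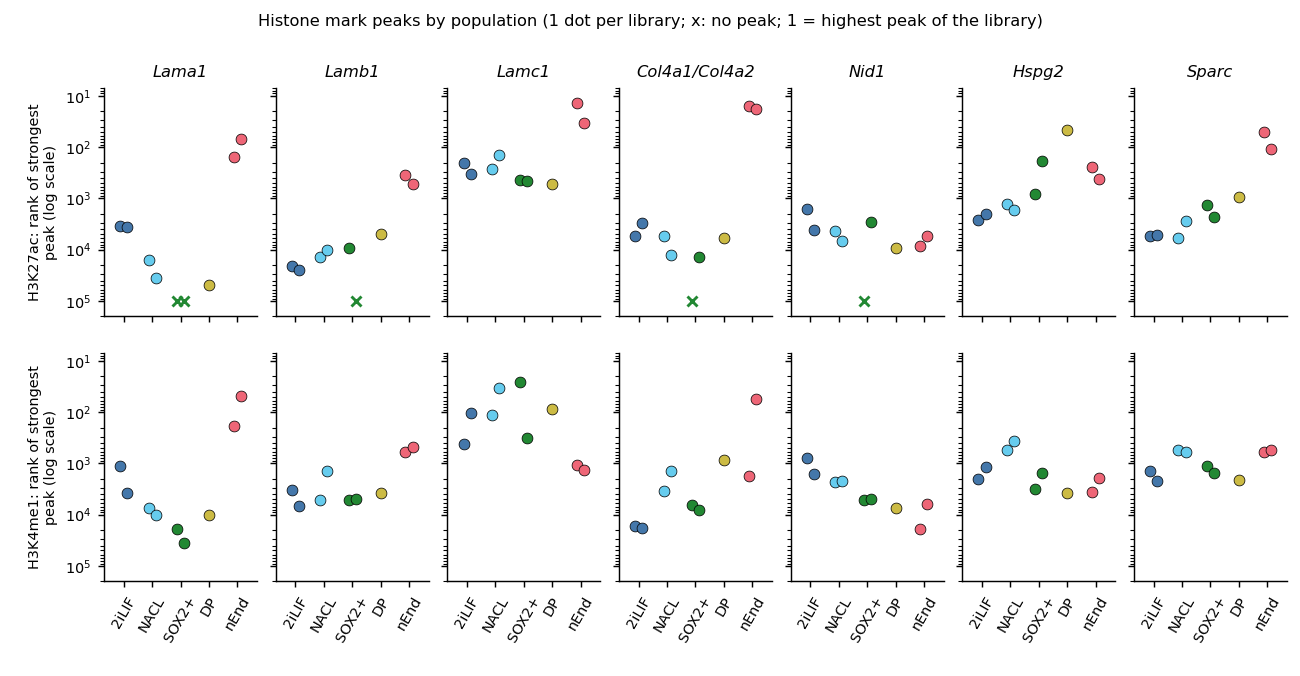
Best rank (log axis, best at the top) of H3K27ac and H3K4me1 at the 7 loci, 1 point per library, by population, with crosses at the foot for libraries without a peak. The nEnd points of H3K27ac stand above all 2iLIF and NACL points at every locus but Nid1, while for H3K4me1 this holds at Lama1 and Lamb1.

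Against SOX2+ cells, 5 of 7 loci ranked higher in nEnd for H3K27ac, with Nid1 and Hspg2 overlapping, where 28.9% of all loci were higher and 17.8% lower. The exact permutation test of 2 against 2 libraries cannot go below p = 0.333. Without the SOX2+ library of experiment B, which left 1 SOX2+ library, Nid1 and Hspg2 were higher too (7 of 7, where 33.7% of all loci were).

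H3K4me1 gave a more divided picture. Lama1 ranked 186 and 49 in nEnd and between 1132 and 10125 in naive cells, and Lamb1 ranked 593 and 489 against 1401 to 6745, with ratios of 44.3 and 6.58. These were 2 of 7 loci higher, where 16.2% of all loci were. In the opposite direction, Lamc1 ranked 1067 and 1364 in nEnd against 34 to 418 in naive cells, and Nid1 ranked 18906 and 6227 against 771 to 2310. These 2 were lower by the same rule, as were 14.5% of all loci. By total signal the H3K4me1 groups overlapped at Lamc1, with a log10 difference of -0.0300, while Nid1 was still lower. For the other 3 loci the groups overlapped: the collagen IV locus ranked 1762 and 55 in nEnd and 1401 to 18026 in naive cells, Hspg2 3626 and 1932 against 371 to 1972, and Sparc 593 and 547 against 560 to 2187. As a share of the list, collagen IV was higher in nEnd, with a ratio of 16.6, and Hspg2 lower, with 0.261. The exact permutation p of the 4 called loci was again 0.133, the smallest possible, with an adjusted p of 0.433. Ranking by total instead of maximal signal raised the number of higher loci to 4 (19.4% of all loci), as did leaving out the first nEnd library (22.4%).

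In comparison with SOX2+ cells, H3K4me1 ranked higher in nEnd at Lama1, Lamb1, collagen IV and Sparc (4 of 7, background 24.3%) and lower at Lamc1 and Nid1 (2 of 7, background 23.5%). By total signal Lamc1 turned to higher, with a log10 difference of 0.90, and neither was called lower, and the sign at Sparc turned within 5 kb of the start and as a share of the list. The SOX2+ ranks were 18754 and 35516 at Lama1, 6471 and 8278 at collagen IV and 26 and 319 at Lamc1.

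The extent of H3K27ac in nEnd was as marked as its rank. A single peak of 261 kb in clone B9 and 258 kb in clone B12 covered Col4a1 and Col4a2 from end to end, and it was both the widest peak and that with the highest total signal in either library. Lamc1 lay entirely under a peak of 121 kb in both clones, which was 4th and 6th by width. Lamb1 lay entirely under peaks of 83.9 and 92.2 kb (ranks 15 and 32 by width). Adjoining peaks covered 98.8% and 97.7% of Lama1, the widest of them 76.8 and 69.6 kb long, and peaks covered 95.5% and 95.7% of Sparc. Hspg2 was covered to 54.7% in clone B9 and 94.4% in clone B12. Nid1 carried 1 peak of 1.8 and 2.2 kb, which covered 2.43% and 2.97% of the gene.

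The wide peaks need the width of all peaks beside them, since the median H3K27ac peak was 4386 and 5453 bases wide in nEnd and 675 to 1574 in the other groups. Within each library, the cover of a gene was therefore set against that of the 10158 loci with gene bodies of at least 20 kb, a minimum chosen after the values were seen. In the nEnd libraries, the share of these loci with less cover was 99.1% and 97.7% for Lamb1, Lamc1 and collagen IV, 99% and 97.3% for Lama1, 98.6% and 96.7% for Sparc, 91.4% and 96.3% for Hspg2, and 46.4% and 48.5% for Nid1. In naive cells, H3K27ac covered 80.9% to 89% of Lamc1, more than at 95.4% to 98.1% of loci. It covered 55.4% to 65.8% of Sparc, more than at 83.4% to 88.4% of loci, and 41.7% to 74.6% of Nid1, more than at 72.8% to 93.3% of loci. The collagen IV genes were covered to 1.03% to 16.2% in naive cells, more than at 8.8% to 41.0% of loci. SOX2+ cells had no H3K27ac in the bodies of Lama1, Lamb1 or the collagen IV genes in either library.

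**Figure D3:**
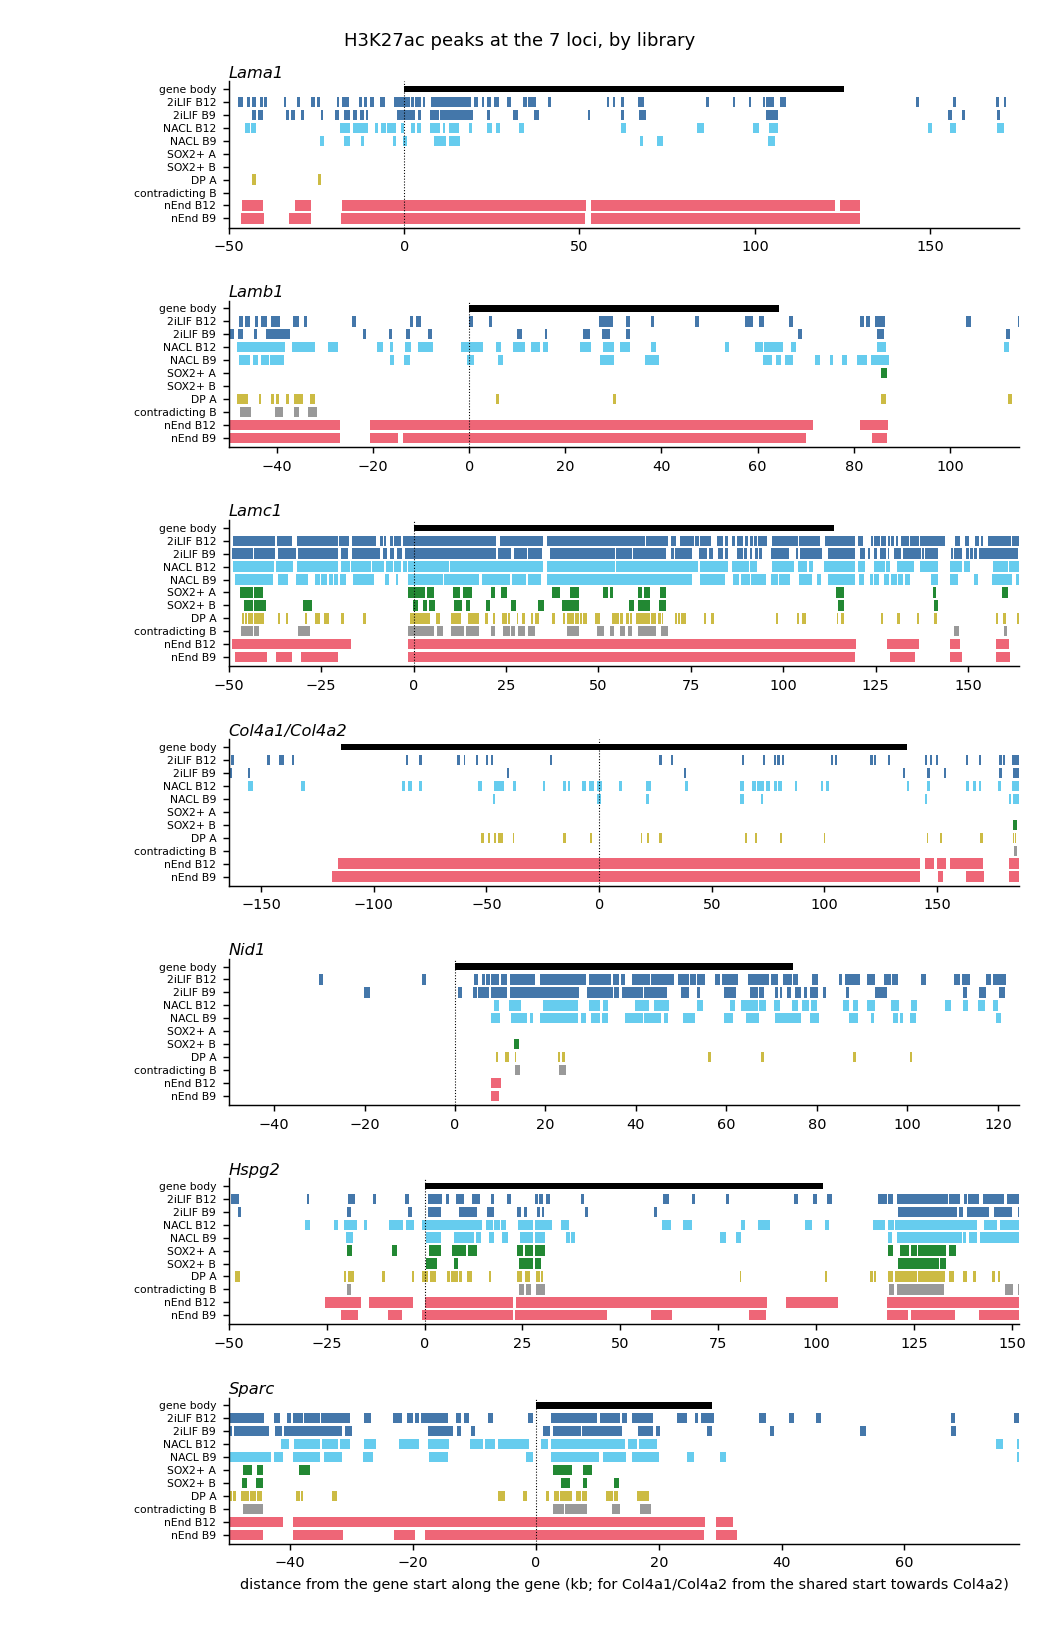
Extent of H3K27ac peaks in every library (rows) along each locus, as distance in kb from the gene start in the direction of transcription (for Col4a1/Col4a2 from the shared start), with the gene body as a black bar. In nEnd, single peaks of 261 and 258 kb span both collagen IV genes and peaks of 121 kb span Lamc1, whereas the nEnd peaks at Nid1 are 1.8 and 2.2 kb long.

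An H3K27ac region shared by both libraries of a population was counted as an enhancer where it overlapped an H3K4me1 region shared by both. All 7 loci had at least 1 in nEnd, as did 47.5% of all loci. The 7 loci held 20 in nEnd, 50 in 2iLIF, 37 in NACL and 20 in SOX2+ cells. The genome held 7636, 27880, 15586 and 7459. In SOX2+ cells 3 of 7 loci had an enhancer (Lamc1, Hspg2 and Sparc, background 37.0%). In 2iLIF all but collagen IV had an enhancer (6 of 7, background 65.1%), and in NACL all 7 had (background 55.3%), collagen IV with 1. H3K4me1 covered less of the genes in nEnd than H3K27ac did, except at Nid1: the H3K4me1 lists covered 90.6% and 17.6% of Lama1, 91.2% and 37.7% of Lamb1, 90.7% and 46.2% of Lamc1, 74.9% and 55.6% of the collagen IV genes and 4.93% and 2.87% of Nid1. The 2 nEnd libraries of this mark thus differed widely.

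GATA6 binding in nEnd was headed by Lama1. The region 43 kb upstream, whose sequence heads the set above, held the highest GATA6 peak of the whole library in both nEnd clones. The nearest gene start to it is that of Lrrc30, 21.5 kb away. The same region ranked 2170 and 2068 in DP cells of experiments A and A1 and held no peak in experiment B, and no SOX2 peak lay there in any of the 10 SOX2 libraries. It overlapped H3K27ac in both nEnd libraries and the DP library and in neither SOX2+ library.

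Lamb1 reached its highest GATA6 ranks in DP cells. The region 35.8 kb upstream of it ranked 4, 5 and 7 in the 3 DP libraries, and 43 and 9 in nEnd. SOX2 ranked 44, 18 and 147 at this region in DP cells, whereas NACL of clone B12 ranked 5655 and the other 6 pluripotent libraries had no SOX2 peak there. Of all member regions this one stood highest for GATA6 in each DP library. A region 43.5 kb upstream ranked 75 and 11 for GATA6 in nEnd.

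At Lamc1, DP cells had their strongest GATA6 peak in an intron, 11.8 kb from the start, with ranks of 35, 40 and 30, where nEnd ranked 977 and 178. In nEnd the strongest GATA6 peak was the proximal upstream region, 26 kb from the start, with ranks of 8 and 24 against 874, 433 and 1009 in DP. The strongest position thus differed between the populations. The distal upstream region, 43.9 kb from the start, was bound throughout: SOX2 ranked between 130 and 1234 in the 7 pluripotent libraries and 106, 67 and 314 in DP, and GATA6 ranked 188, 147 and 520 in DP and 746 and 202 in nEnd.

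At collagen IV, GATA6 ranked 59, 32 and 20 in DP cells at an intronic region of Col4a1, 46.6 kb from the shared start. The same region ranked 7310 and 1067 in nEnd, where the strongest GATA6 peaks of the locus lay elsewhere, at 54.8 kb inside Col4a2 in clone B9 (rank 539) and 57.2 kb from the start within Col4a1 in clone B12 (rank 867). SOX2 ranked 499, 551 and 844 at the region in DP cells, 20693 and 15491 in NACL, and had no peak in 2iLIF or SOX2+ cells. A second region of Col4a1, 3.9 kb from the start, held a peak in all 15 SOX2 and GATA6 libraries. Only the distal Lamc1 region shared this, among 170 regions of the 7 loci, and 0.0992% of all regions did.

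Nid1 had 5 regions, of which 2 held SOX2 and 4 held GATA6 in nEnd, and its best ranks were those of SOX2. A region 13.5 kb inside the gene, in an intron, held SOX2 in all 10 libraries, with ranks of 315 to 2768 in pluripotent cells and 1217, 551 and 167 in DP cells, and no GATA6 peak in any library. GATA6 in nEnd ranked 10995 and 10453 at its best, in another intronic position 9.3 kb from the start.

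Near Hspg2, SOX2 ranked 28, 78 and 593 in DP cells at a region 121.7 kb from the Hspg2 start and 3.3 kb before that of Usp48. It had no SOX2 peak in 2iLIF, NACL or SOX2+ of experiment B, and ranks of 12666 and 13752 in SOX2+ of experiments A and A1. GATA6 ranked 378, 214 and 260 there in DP cells and 799 and 757 in nEnd. Which gene a region between Hspg2 and Usp48 acts on was not tested.

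The Sparc region 5.8 kb upstream ranked 1585, 860 and 1219 for GATA6 in DP cells, and 387 and 116 in nEnd. SOX2 ranked 3084 and 3219 there in DP cells of experiments A and A1, with no peak in experiment B or in any pluripotent library.

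**Figure D4:**
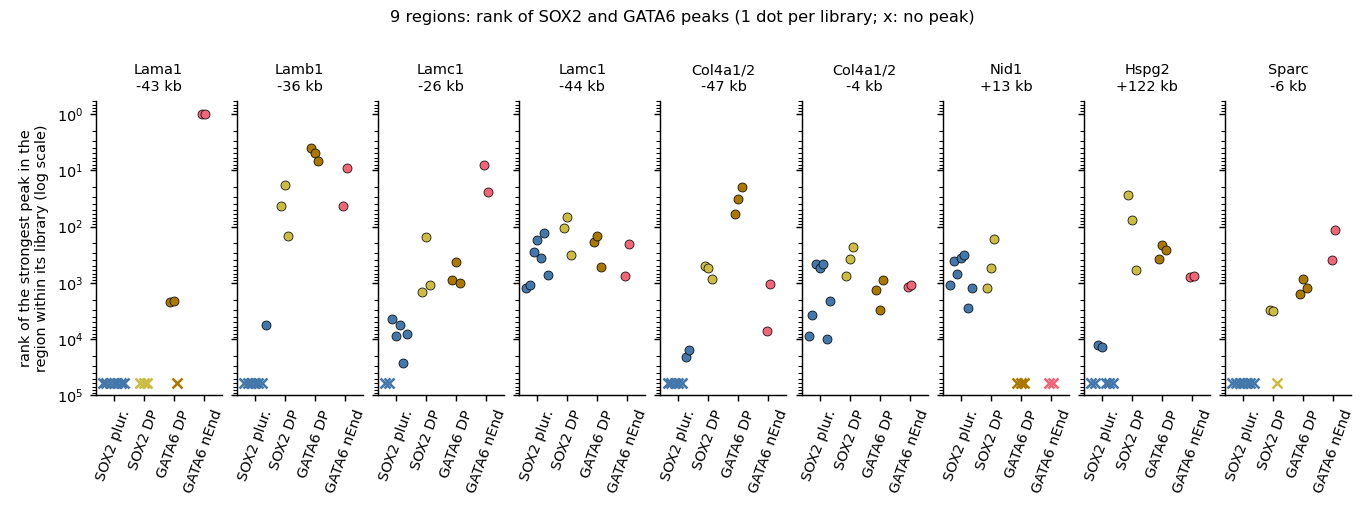
Ranks (log axis, best at the top) of SOX2 and GATA6 peaks in each library at 9 named regions of the 7 loci, by antibody and population, with crosses for libraries without a peak. The Lama1 region stands at rank 1 for GATA6 in both nEnd libraries, and the Lamb1 region 35.8 kb upstream at 4, 5 and 7 in DP.

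Compared over whole loci, the order of GATA6 ranks in nEnd and DP split the set. Lama1 (1 and 1 in nEnd, at best 2068 in DP), Lamc1 (8 and 24 against 30 to 40) and Sparc (387 and 116 against 860 to 1585) ranked higher in both nEnd libraries than in all 3 DP libraries, and Lamb1 (43 and 9 against 4 to 7), collagen IV (539 and 867 against 20 to 59) and Hspg2 (799 and 757 against 214 to 378) ranked lower. That is 3 of 7 loci in each direction, where 4.23% of all loci were higher and 4.05% lower. The exact permutation p was 0.2, the smallest that 2 against 3 libraries allow. The direction at Lamb1, Lamc1 and collagen IV turned under some other choices of window or signal, and none of the loci was called higher within 5 kb of the gene starts. DP lists were the shorter ones, and as a share of the list Lama1, Lamc1, Sparc, Nid1 and Hspg2 were higher in nEnd (5 of 7, where 50.5% of all loci were), collagen IV was lower (0.898%) and Lamb1 overlapped.

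SOX2 in DP cells ranked above all 7 pluripotent libraries at Lamb1 and Hspg2, 2 of 7 loci where 1.5% of all loci did so. None of the 7 was lower, as were 0.784% of all loci. Lamb1 ranked 44, 18 and 147 in DP cells, against 5655 at best in pluripotent cells, a 28.2-fold ratio with ranks limited to the 1378 peaks of the shortest list, and Hspg2 ranked 28, 78 and 593 against 825 at best, an 11.8-fold ratio. The exact permutation p at Lamb1 was 0.0167, the adjusted p 0.73, and no locus in the genome passed an adjusted p of 0.05 although 625 had an unadjusted p below it. This test treated all libraries as independent, although DP and SOX2+ libraries share experiments and the others differ in medium and partly in clone. Against the 3 SOX2+ libraries, the same 2 loci ranked higher (background 2.01%) and none lower (background 2.41%), with an exact permutation p of 0.1, the smallest that 3 against 3 libraries allow. With the experiment as replicate block, Lamc1 ranked higher as well (3 of 7, background 2.7%), and the smallest exact p of that pairing is 0.25. As a share of the list, which is shorter in DP than in pluripotent libraries, only Lamb1 was higher in DP (1 of 7, where 0.0912% of all loci were higher than in pluripotent and 0.137% than in SOX2+ cells). By that measure Lama1 and Nid1 were lower than in pluripotent cells (16.1% of all loci), and Lama1, Nid1 and collagen IV lower than in SOX2+ cells (30.4%). Both calls by rank rest on regions more than 10 kb outside the genes, and with 10 kb windows neither locus was called. Without the DP library of experiment B, the shortest list, 4 loci ranked above the pluripotent libraries (7.03% of all loci) and 5 above SOX2+ (8.97%).

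SOX2 and GATA6 peaks were joined where they shared at least 1 base, so their maxima may lie apart. This gave 170 regions at the 7 loci, of 72577 in the genome. Lamc1 had 44 of them, collagen IV 39, Lamb1 28, Hspg2 22, Lama1 20, Sparc 12 and Nid1 5. Of these, 13 were co-bound in DP cells, with SOX2 and GATA6 each in at least 2 of 3 libraries, as were 1.37% of all regions: 4 at Lamc1, 3 each at Lamb1 and Hspg2, 2 at collagen IV, 1 at Sparc, and none at Lama1 or Nid1. A co-bound region was thus found at 5 of 7 loci and at 6.71% of all loci. GATA6 was present in both nEnd libraries at 11 of the 13 (70.9% of all 992 co-bound regions), and SOX2 was absent from all pluripotent libraries at 3 of the 13 (26.2%), 1 each at Lamb1, Lamc1 and Sparc.

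**Figure D5:**
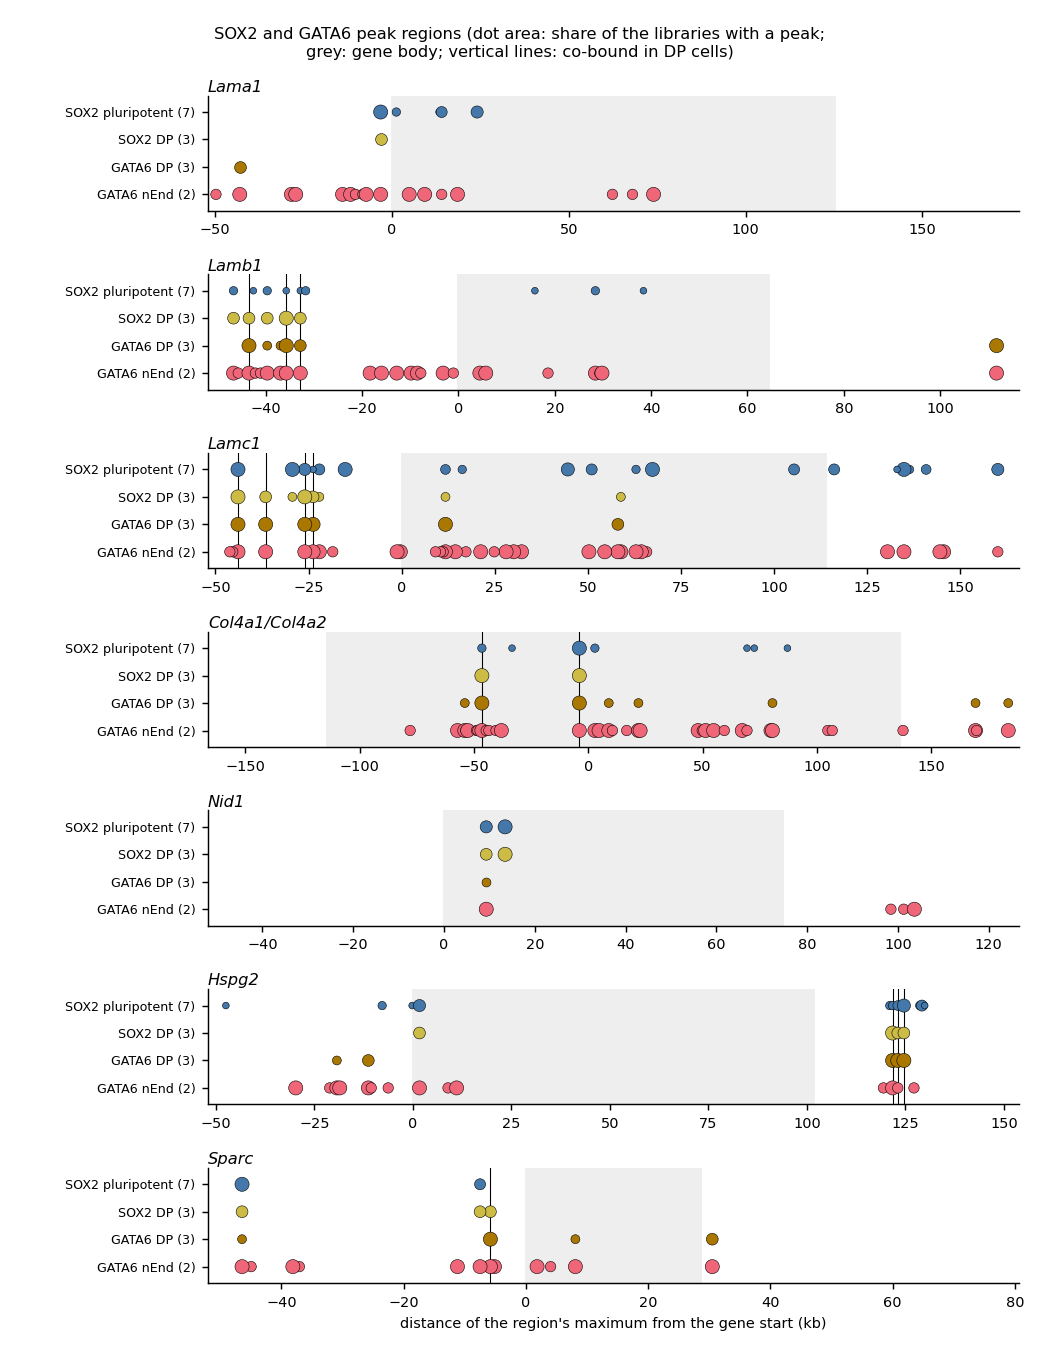
SOX2 and GATA6 regions along each locus, as distance in kb from the gene start, with dot area giving the share of a population's libraries that hold a peak, grey bars for gene bodies and vertical lines for the regions co-bound in DP cells. The lines lie upstream of Lamb1, Lamc1 and Sparc, inside Col4a1 and downstream of Hspg2, and there is none at Lama1 or Nid1.

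In windows of 300 bases centred on the best-ranked SOX2 or GATA6 maximum of any library, AGATAA on either strand lay in 11 of the 13 co-bound regions (75.9% of co-bound regions and 37.8% of all regions in the genome), and CATTGT in 7 of the 13 (35.8% and 31.9%). In stretches of 200 bases centred on the DP GATA6 maximum instead, AGATAA lay in 12 of the 13 and CATTGT in 4 of the 13. The Lamb1 sequence above holds 3 copies of AGATAA and 1 of CATTGT, and the Lama1 sequence 1 and 2. Of the Hspg2 stretches, 2 hold nearly the same bases around AGATAA, so their copies are not independent. These counts describe letters in a window and not occupied sites.

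GATA6 was present in both nEnd libraries at 88 of the 170 regions (27.2% of regions in the genome), and 61.0% of all loci had such a region. Of the 88, 83 overlapped H3K27ac in both nEnd libraries (58.5% of such regions in the genome), 65 H3K4me1 in both nEnd libraries (52.6%), 45 H3K27ac in the DP library (30.5%), 77 H3K27ac in at least 1 naive library (78.0%) and 18 H3K27ac in a SOX2+ library (12.9%). The H3K27ac peaks of nEnd span whole genes at 3 of these loci, so the regions under them share peaks. Of the 88, 53 held AGATAA (60.2% against 61.8% in the genome).

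In the single DP library of each mark, 4 of the 7 loci stood above both SOX2+ libraries for H3K27ac, where 24.1% of all loci did. Hspg2 ranked 46 against 835 and 190, Sparc 961 against 1355 and 2308, Lamb1 4908 against 9353 and no peak, and collagen IV 6039 against 13676 and no peak. At Lamb1 and collagen IV the DP peak lay 35.9 and 46.6 kb from the start, at the co-bound regions printed above, and at Hspg2 it lay inside Usp48. Lamc1 ranked 530 in DP cells, below both SOX2+ libraries (433 and 451), Nid1 ranked 9452 and Lama1 49076. For H3K4me1 the DP library ranked 858 at collagen IV, 3865 at Lamb1 and 10215 at Lama1, above both SOX2+ libraries (3 of 7, background 31.9%). It ranked 86 at Lamc1, between the SOX2+ libraries. It stood below both of them at Nid1 (7418 against 5173 and 4960), Hspg2 (3865 against 3225 and 1561) and Sparc (2122 against 1126 and 1561). The share of all loci below both was not counted. The H3K4me1 peak of DP cells behind the Lama1 rank lay 150.6 kb from the start, in an intron of Arhgap28 beyond the 3′ end of Lama1, whereas the SOX2+ peaks lay 1.2 kb inside Lama1. Another DP peak, over the upstream Lama1 sequence printed above, ranked 11973, also above both SOX2+ libraries (18754 and 35516). With 1 library a mark, no replicate bears on these values. The libraries with contradicting labels stood above both SOX2+ libraries at 2 of 7 loci for H3K27ac (background 21.5%) and 3 of 7 for H3K4me1 (background 32.9%). They ranked, for H3K27ac, 6314 at Lamb1, 1068 at Lamc1, 14497 at collagen IV, 8506 at Nid1, 174 at Hspg2 and 1383 at Sparc, with no peak at Lama1. For H3K4me1 they ranked 33627 at Lama1, 1164 at Lamb1, 136 at Lamc1, 3041 at collagen IV, 1164 at Nid1, 1656 at Hspg2 and 2309 at Sparc.

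The wider basement membrane machinery was less uniform. Of 40 other genes listed as chains and components, assembly enzymes and receptors, 16 ranked higher in nEnd than in naive cells for H3K27ac, 6 lower and 18 neither, with a median log10 difference of 0.13. The 8 genes of assembly and secretion gave 4 higher and 1 lower, the 23 other chains and components 8 and 3, and the 9 receptors 4 and 2. Among the 4 largest differences of called genes were those of Tinagl1, which encodes a tubulointerstitial nephritis antigen-like matrix protein, with a ratio of 59.9, Serpinh1, the collagen chaperone HSP47, with 32.1, and P4ha1, a collagen prolyl hydroxylase, with 29.7. The share of all loci was 19.5% higher and 19.2% lower in that comparison. For H3K4me1 9 of the 40 were higher and 8 lower (16.2% and 14.5% of all loci), for GATA6 in nEnd against DP 3 and 3 (4.23% and 4.05%), and for SOX2 in DP against pluripotent cells 0 and 2 (1.5% and 0.784%). Against SOX2+ cells the counts were 16 and 5 for H3K27ac (28.9% and 17.8%), 13 and 11 for H3K4me1 (24.3% and 23.5%), and 0 and 2 for SOX2 in DP (2.01% and 2.41%).

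Outside these windows, the genes whose best ranks over 31 libraries lay closest to the median of the 7 loci were C1s2, Arfgap3, Akap13, Ptpn6 and Lpcat3, with mean absolute differences of 0.22 to 0.24 in log10 rank. Overlap among the windows of these genes was not excluded, so they may share peaks. Of the members, Sparc lay closest at 0.27, followed by Hspg2 at 0.37, collagen IV at 0.38, Nid1 at 0.44, Lama1 at 0.48 and Lamb1 at 0.49. Lamc1 lay at 0.91, farther than 99.5% of all loci.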

How the data were processed

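Reads were processed by the authors with cutadapt 1.18 for trimming, Bowtie2 2.3.4.1 for alignment to GRCm38 (mm10), and SAMtools 1.9, Picard 2.9.1 and bedtools 2.27.1 thereafter, and peaks were called per library with SEACR (version not given in the sources used here), per the paper's methods and the submitters' processing notes. The deposited lists give the total signal (column 4) and the maximal signal (column 5) of each peak, as coverage on the scale of each library. Read depth is unknown, so no counting interval can be given. File names and methods differ on which lists used the relaxed and which the stringent SEACR mode. Of 53 samples, 18 IgG controls were not used here and 2 histone libraries whose labels contradict each other were left out of all groups. The label of 1 NACL SOX2 library (clone B12) names IgG as its source, and its title was followed.

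A peak's rank was 1 plus the number of peaks with a higher column 5 in its library. Per locus, mean log10 best ranks were compared by a two-sided exact permutation test, with Benjamini-Hochberg adjustment over 21937 loci, and a locus was called where the groups did not overlap. SOX2 and GATA6 regions joined peaks that shared at least 1 base, whether or not their maxima coincided. SOX2 libraries of DP and SOX2+ cells from the same experiment deviated together (r over loci of 0.12, 0.22 and 0.23), so that experiment pairs them. Libraries of the same clone in 2iLIF, NACL and nEnd gave r over loci of 0.02 to 0.14 for H3K27ac, and the clone block left 6 loci called (background 22.5%). Whether libraries of a group came from separate cultures is not stated for all, and p-values measure the spread between libraries.

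The members and lists were chosen with earlier results of these data known. Genes named beyond the members were the 4 largest H3K27ac differences among called genes of the basement membrane list (1 of them is not reported here), the marker genes, the 5 genes most like the members, and neighbours holding a strongest peak. Scripts (Python 3.11.15, numpy 2.4.6, pandas 2.3.3, pysam 0.24.0) were tested on simulated data. Alternatives ranked by total signal, used 10 kb flanks or 5 kb around starts, full lists, the stronger peaks only, the rank as a share of the list (added after the data were seen), blocks and leaving out each library.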

Additional observations from a re-analysis of the deposited data

Results flagged for a closer look

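The DP histone libraries, 1 per mark and outside every test between groups, held peaks that ranked above both SOX2+ libraries, as did 24.1% of all loci for H3K27ac and 31.9% for H3K4me1. For H3K27ac these were Lamb1 at 4908, collagen IV at 6039, Hspg2 at 46 and Sparc at 961. For H3K4me1 they were Lama1 at 10215 (a peak in Arhgap28, beyond the gene, with an upstream peak at 11973), Lamb1 at 3865 and collagen IV at 858. Below both SOX2+ libraries stood Lamc1 for H3K27ac, and Nid1, Hspg2 and Sparc for H3K4me1.

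The libraries of experiment B with contradicting labels also ranked above both SOX2+ libraries at 2 of 7 loci for H3K27ac and 3 of 7 for H3K4me1, where 21.5% and 32.9% of all loci did. For H3K27ac these were Lamb1 at 6314 and Hspg2 at 174. For H3K4me1 they were Lamb1 at 1164, collagen IV at 3041 and Nid1 at 1164. None of these differences was tested, since each rests on 1 library. A library standing apart was looked for in 13 sets of ranks without values at the limit of the shortest list, and none was found. Each set held the ranks of 1 locus in the 4 naive libraries of a histone mark or the 7 pluripotent SOX2 libraries. GATA6 libraries, and nEnd, DP and SOX2+ libraries as groups of their own, were not examined in this way.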

How the results depend on the processing

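Of 595 recomputed values of single loci, 500 kept their direction and call and 20 changed sign at a locus called in either setting. The count of 6 loci higher in nEnd for H3K27ac than in naive cells was 6 with each library left out and under each alternative but the share of the list, which gave 4, and that against SOX2+ cells was 5 to 7. For H3K4me1 against naive cells, the count of 2 became 4 when ranked by total signal and 2 to 4 with a library left out, reaching 4 without the first nEnd library. As a share of the list, Lama1, Lamb1 and collagen IV were higher in that comparison, and Lamc1, Nid1 and Hspg2 lower. The 2 loci with higher SOX2 in DP than in pluripotent cells became 0 with 10 kb flanks, 0 within 5 kb of starts and 2 to 4 with a library left out. Against SOX2+ cells the counts were 0, 0 and 2 to 5, and 4 with full lists, where 70.7% of all loci were called. Both were 1 as a share of the list. In both, the highest count came without the DP library of experiment B. With the experiment as replicate block the count was 3, and with the clone as replicate block it was 6 for H3K27ac. The H3K4me1, GATA6 and remaining comparisons were not paired. For GATA6, 3 loci higher in nEnd became 0 within 5 kb of starts and 5 as a share of the list.

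At loci called in either setting, log10 differences changed sign as follows. As a share of the list, H3K27ac against naive cells became -0.0808 at Lamc1 and -0.33 at Hspg2, SOX2 in DP -0.48 at Nid1 (pluripotent) and -0.53 at collagen IV (SOX2+), GATA6 0.32 at Lamb1 and 0.45 at Hspg2, and H3K4me1 against SOX2+ -0.0112 at Sparc. SOX2 at Hspg2 became -0.0319 against pluripotent and -0.0744 against SOX2+ cells, both with 10 kb flanks and within 5 kb of starts. GATA6 became 0.38 at Lamb1 and -1.08 at Lamc1 with 10 kb flanks, -0.0749 at Lamc1 and 0.0497 at collagen IV by total signal, and 0.0195 at collagen IV within 5 kb. Against SOX2+ cells, H3K27ac at Nid1 ranged from -0.37 without SOX2+ of experiment A to 0.30 without that of experiment B, and at Hspg2 from -0.22 to 0.42, and H3K4me1 became 0.90 at Lamc1 by total signal and -0.0610 at Sparc within 5 kb. The share of the list was chosen after the data were seen. The cause of these changes was not tested.

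The 170 regions became 99 with the stronger peaks of each library and 103 with 10 kb flanks. The 13 co-bound regions became 6 when all 3 DP libraries were required, 5 with the stronger peaks and 3 with 10 kb flanks. The 20 nEnd enhancers became 10 with 10 kb flanks. Unknown depth limits all lists, since a missing peak may lie below a threshold.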
